A study of Mus musculus with 20 samples.

Results

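Genes commonly used to describe the macrophages that live in the heart were followed in the left ventricle of 20 mice, 10 in number: Csf1r, Cd68, Cd163, Mrc1, Lyve1, Cd14, C1qa, C1qb, C1qc and Cx3cr1. They were taken by name. On the Affymetrix Mouse Gene 1.0 ST array each of the 10 has 1 transcript cluster, the summary of the probes over its exons, that the platform annotation ties to that gene alone, and these are 10 of the 19937 genes with a cluster of their own among 34760 clusters. All mice were male C57BL/6 and about 2 months old by the sample labels. FA-DOXO mice (n = 6) received folic acid (FA) at 10 mg per day in their diet from 7 days before a single intraperitoneal injection of doxorubicin (DOXO, an anthracycline that damages heart muscle) at 20 mg/kg, and DOXO mice (n = 6) received the injection on the diet without FA. FA-sham mice (n = 4) received FA and saline, and sham mice (n = 4) the diet without FA and saline. Tissue was taken at day 10, from mice that had survived until then, so the groups given DOXO describe survivors.

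Macrophages are the most abundant immune cells of the resting heart. They clear dying cells and cell debris, take up haemoglobin and hyaluronan, make complement C1q and depend on colony stimulating factor 1, whose receptor is encoded by Csf1r. Those lodged in the tissue since before birth carry scavenger receptors such as CD163, the mannose receptor CD206 (Mrc1) and LYVE1, whereas monocytes that enter after injury carry much CD14 and, in part, the fractalkine receptor CX3CR1. None of the 10 genes belongs to macrophages alone. Lyve1 also marks lymphatic endothelium, Cd14 is also made by neutrophils and monocytes, and Cd68, a lysosomal membrane protein, is found in many phagocytes. The array measured a piece of ventricle, and in such bulk tissue fewer macrophages and less RNA per macrophage cannot be told apart.

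Signals are deposited log2 values, so a difference of 1 is a doubling. The arrays differed in spread: the SD of the log2 signals over an array was 1.14 to 1.50 on 8 arrays, called wide here, and 0.863 to 1.03 on the other 12, called narrow. Wide arrays were those of 2 FA-DOXO, 2 DOXO, 1 FA-sham and 3 sham mice, while the array medians lay between 6.23 and 6.66. Spread and group are thus partly tied, since 3 of 4 sham mice have wide arrays. Differences between groups are given first from group means alone and then with the array SD as a covariate, each with its standard error (SE) and p from limma. Following the study's methods, a cluster is called at an unadjusted p under 0.01, and an adjusted p (Benjamini-Hochberg over all 34760 clusters) is given beside it. Mean levels of marker sets also differed with the spread. On the 8 wide arrays they were 6.84 to 7.32 for 24 other macrophage genes and 11.63 to 13.13 for 8 cardiomyocyte genes. On the 12 narrow arrays these 2 sets averaged 6.56 to 6.85 and 8.20 to 11.00.

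No difference between group means passed the threshold for any of the 10 genes. In DOXO against sham hearts 0 of 10 were past the unadjusted threshold, where 1.05% of all clusters were. The same held for FA-DOXO against DOXO, with 0 of 10 beside 0.158% of all clusters, and for FA-DOXO against FA-sham, with 0 of 10 beside 0.268%. In FA-sham against sham it was 0 of 10 beside 4.35%, for the interaction of diet and injection 0 of 10 beside 0.463%, and for DOXO against saline averaged over both diets 0 of 10 beside 0.506%. At an unadjusted limma p under 0.05, 1 gene passed in DOXO against sham (Cd14) and 1 in FA-sham against sham (Cx3cr1). In the other 4 comparisons 0 passed. Of all 34760 clusters, 1991 passed it in DOXO against sham, 10784 in FA-sham against sham and 433 to 1803 in the other 4. No member passed an adjusted p of 0.05 in any of the 6 comparisons, against 0.00288% of clusters in DOXO against sham, 0.00288% in FA-DOXO against FA-sham, 0.0115% for DOXO averaged over both diets and 0% in the other 3. The median difference of the 10 genes was 0.11 in DOXO against sham, beside 0.10 over all clusters. Of 40 two-sided exact permutation tests (10 genes in 4 comparisons of 2 groups), 3 gave a p under 0.05. The smallest p after Benjamini-Hochberg adjustment over these 40 tests was 0.508.

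**Figure D1:**
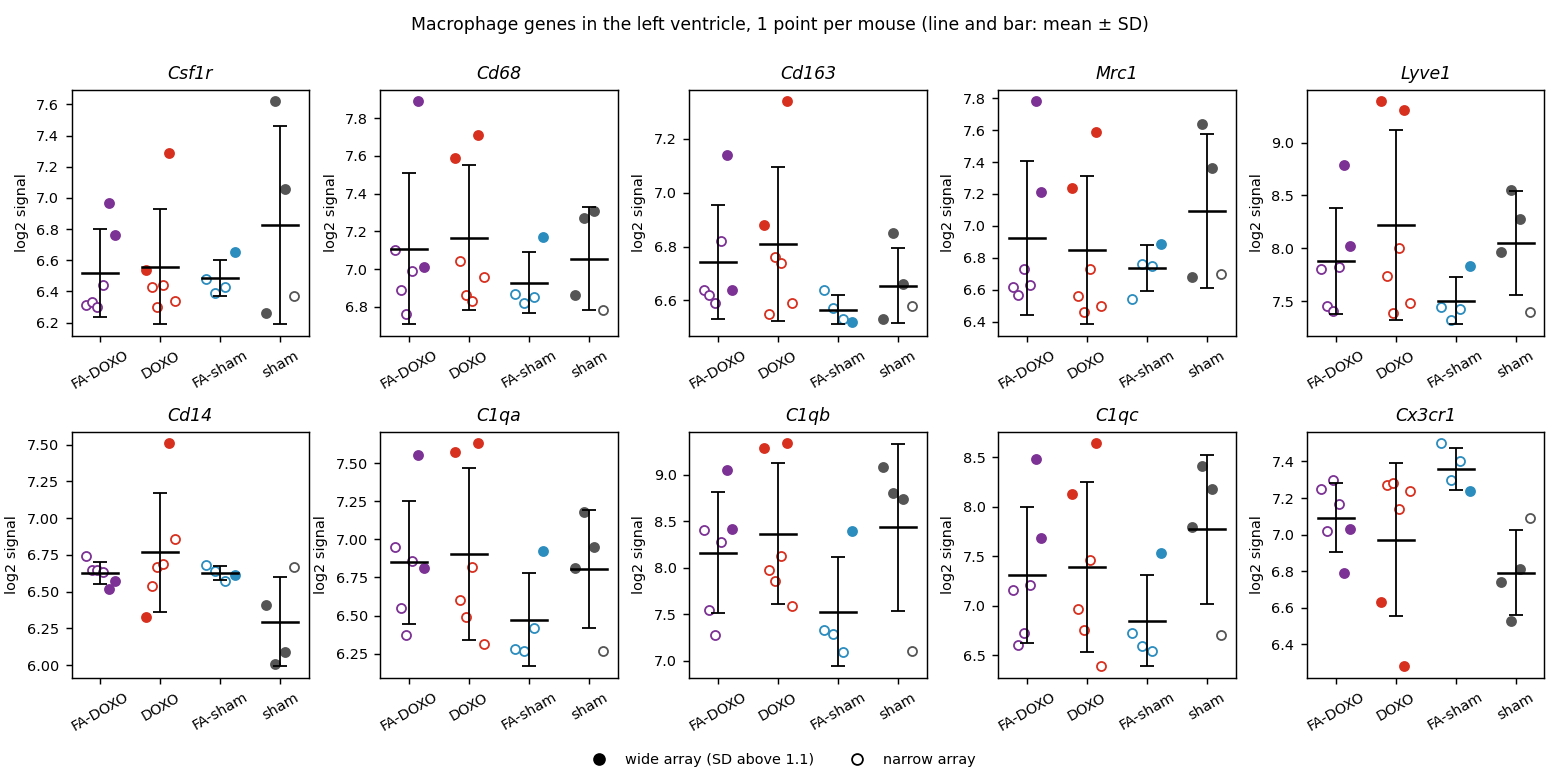
Log2 signal of the 10 genes, 1 point per mouse, in the 4 groups. Filled points are wide arrays (array SD above 1.1), open points are narrow ones, the line and bar are the mean ± SD of a group, and each panel has its own axis. For C1qb, Lyve1 and C1qc the filled points of each group stand above its open ones, and for Cx3cr1 they stand below most of them.

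Most of these genes varied with the spread of the array. With group means removed, 9 of 10 followed the array SD at an adjusted p under 0.05 in limma. Of these, 8 were higher on wider arrays, beside 29.8% of all clusters, and 1 was lower, beside 51.9%. C1qc had a slope of 3.21 (SE 0.22, adjusted p = 3.01e-10), which means that 2 arrays whose SDs differ by 1 differ by 3.21 in log2 signal. C1qb had a slope of 2.96 (SE 0.36) and Lyve1 one of 2.73 (SE 0.21). Slopes of 1.92 for C1qa, 1.83 for Mrc1, 1.45 for Csf1r and 1.41 for Cd68 were intermediate, and Cd163 had the smallest of the 8 at 0.70 (SE 0.17, adjusted p = 0.000975). Cx3cr1 ran the other way at -1.15 (SE 0.16, adjusted p = 2.18e-06), and Cd14 showed no slope past the threshold, at -0.13 (SE 0.30, adjusted p = 0.689). Cardiomyocyte, endothelial, fibroblast and MHC class II marker sets averaged higher on wide arrays as well. Neutrophil, dendritic cell, T cell, B cell, mast cell and erythroid sets averaged lower there. Neutrophil genes averaged 6.15 on wide and 6.43 on narrow arrays, and T cell genes 5.97 and 6.56. Slopes in either direction are thus not particular to macrophage genes, and what sets the spread was not tested.

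**Figure D2:**
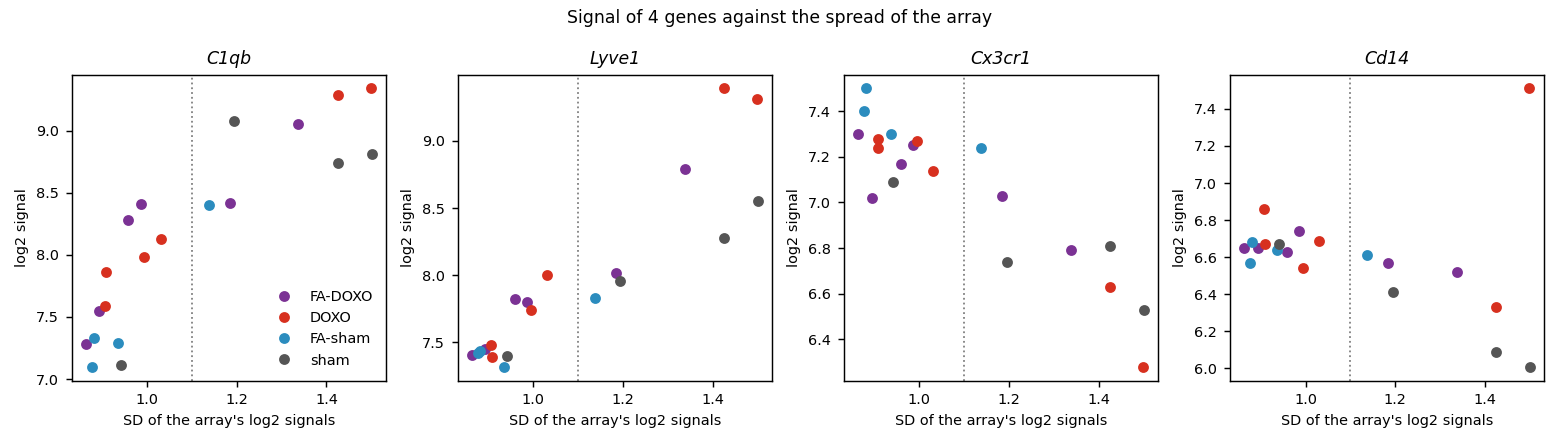
Log2 signal of C1qb, Lyve1, Cx3cr1 and Cd14 (vertical axes) against the SD of all log2 signals of the same array (horizontal axis), 1 point per mouse, coloured by group; the dotted line at 1.1 divides narrow from wide arrays. C1qb and Lyve1 climb with the spread, Cx3cr1 declines, and Cd14 shows 1 DOXO mouse at 7.51 above the rest.

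The 3 chains of complement C1q, which together form the recognition unit that starts the classical pathway on immune complexes and dying cells, are described first. C1qb (cluster 10517508) was at 7.28 to 9.05 in FA-DOXO mice, with a median of 8.34, and at 7.59 to 9.34 in DOXO mice, with a median of 8.05. FA-sham mice had 7.33, 7.29, 7.10 and 8.40, and sham mice 9.08, 8.81, 8.74 and 7.11. The groups overlap. The 1 high FA-sham value and the 3 high sham values are wide arrays, and the low sham value is the only narrow array of that group. From group means alone C1qb differed by -0.07 (SE 0.44) in DOXO against sham and by 0.64 (SE 0.44, adjusted p = 0.983) in FA-DOXO against FA-sham. Given the array SD as a covariate, these 2 differences were 0.34 (SE 0.21, adjusted p = 0.526) and 0.40 (SE 0.21, adjusted p = 0.999). On narrow arrays alone, C1qb was higher in the 8 mice given DOXO than in the 4 given saline by 0.71 averaged over both diets (SE 0.22, adjusted p = 0.883). It was past the unadjusted threshold and the 1 gene of the 10 called there, beside 0.880% of all clusters, and 1 of these 4 was a sham mouse. In the fit with the array SD, the difference averaged over both diets was 0.37 (SE 0.14, adjusted p = 0.446). It was 0.52, and past the unadjusted threshold, without sham mouse 1, and not past it without any other mouse, with 0.29 as the lowest value (without sham mouse 4).

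C1qa (cluster 10517517) was at 6.37 to 7.55 in FA-DOXO mice, with a median of 6.83, and at 6.31 to 7.63 in DOXO mice, with a median of 6.71. FA-sham mice had 6.28, 6.27, 6.42 and 6.92, and sham mice 6.81, 7.18, 6.95 and 6.27. The highest values of every group came from wide arrays, except that 2 narrow FA-DOXO arrays, at 6.95 and 6.86, exceeded 1 of the 2 wide ones of that group. Its difference in DOXO against sham was 0.10 (SE 0.27) from group means and 0.37 (SE 0.10, 1.29-fold, adjusted p = 0.159) with the array SD, past the unadjusted threshold. That call held with 19 of the 20 mice left out in turn and was lost without sham mouse 3, at 0.32. In FA-DOXO against FA-sham, C1qa differed by 0.22 with the array SD (SE 0.10, adjusted p = 0.999), not past the unadjusted threshold. C1qc (cluster 10517513) was at 6.61 to 8.48 in FA-DOXO, 6.39 to 8.64 in DOXO, 6.54 to 7.53 in FA-sham and 6.71 to 8.41 in sham mice, and with the array SD it differed by 0.06 (SE 0.13, adjusted p = 0.885) in DOXO against sham. No test set one chain against another.

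C1qb and C1qc are neighbours on mouse chromosome 4. The 250 bases before each start are shown because these 2 genes had the steepest slopes on the array SD, and that of Mrc1 because it varied against C1qb over the mice. RefSeq promoters on GRCm38.p6 matched 6 of the 10 genes (C1qb, C1qc, Cd68, Cd163, Cx3cr1 and Mrc1). Capitals mark GAGGAA on either strand, the core of the site bound by PU.1 (Spi1), the transcription factor that myeloid cells need. It lies in 23.3% of all 32851 windows of this length and in 4 of these 6 (C1qb, C1qc, Cd68 and Mrc1). A match is a stretch of letters and says nothing about binding in these hearts.
C1qb, chr4:136886201-136886450, minus strand: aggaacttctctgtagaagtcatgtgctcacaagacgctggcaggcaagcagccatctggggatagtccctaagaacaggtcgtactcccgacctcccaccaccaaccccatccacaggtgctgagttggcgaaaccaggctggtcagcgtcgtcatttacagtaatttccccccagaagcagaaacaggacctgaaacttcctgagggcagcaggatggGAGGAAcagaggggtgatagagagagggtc
C1qc, chr4:136892915-136893164, minus strand: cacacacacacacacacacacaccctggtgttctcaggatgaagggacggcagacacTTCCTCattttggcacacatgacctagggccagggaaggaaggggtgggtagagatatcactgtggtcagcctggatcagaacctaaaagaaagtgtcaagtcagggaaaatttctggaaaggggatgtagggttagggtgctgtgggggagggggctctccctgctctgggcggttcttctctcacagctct
Mrc1, chr2:14229164-14229413, plus strand: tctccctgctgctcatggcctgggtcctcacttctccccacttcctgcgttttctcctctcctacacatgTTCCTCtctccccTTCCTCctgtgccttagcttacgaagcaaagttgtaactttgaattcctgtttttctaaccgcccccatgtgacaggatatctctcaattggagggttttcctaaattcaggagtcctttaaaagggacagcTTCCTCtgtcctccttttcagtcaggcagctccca
The match begins 30 bases before the start in C1qb and 193 bases before it in C1qc, and Mrc1 holds 3 matches at 180, 167 and 35 bases. Spi1 itself differed by 0.10 (SE 0.12) in DOXO against sham hearts, and by 0.19 (SE 0.07, adjusted p = 0.246) with the array SD.

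Among the scavenger and endocytic receptors, Lyve1 (cluster 10566934), the hyaluronan receptor of resident macrophages and lymphatic vessels, had the smallest p of the 10 with the array SD. It was at 7.41 to 8.79 in FA-DOXO mice, with a median of 7.81, and at 7.39 to 9.39 in DOXO mice, with a median of 7.87. FA-sham mice had 7.44, 7.32, 7.42 and 7.83, and sham mice 7.96, 8.55, 8.28 and 7.40. The groups overlap, and 2 of 6 DOXO mice, both with wide arrays, stood above every sham mouse. Nearly equal spread can be seen in 4 arrays. DOXO mice 1 and 5, with array SDs of 1.43 and 1.50, had Lyve1 at 9.39 and 9.31, against 8.28 and 8.55 in sham mice 3 and 2, with array SDs of 1.43 and 1.50. Set side by side in that order, C1qa was at 7.57 and 7.63 in these DOXO mice, against 6.95 and 7.18 in the sham mice, and Cd68 at 7.59 and 7.71, against 7.31 and 7.27. C1qb, Cd163 and Cd14 were higher in both DOXO mice as well. Csf1r was lower in both, at 6.54 and 7.29 in DOXO against 7.06 and 7.62 in sham, as were Mrc1, at 7.24 and 7.59 against 7.36 and 7.64, and Cx3cr1, at 6.63 and 6.28 against 6.81 and 6.53. C1qc was mixed, at 8.13 and 8.64 in DOXO against 8.18 and 8.41 in sham. These 4 arrays were chosen after their values were seen and carry no test.

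Lyve1 was higher in DOXO than in sham hearts by 0.55 with the array SD as a covariate (SE 0.12, 1.46-fold, adjusted p = 0.0804), past the unadjusted threshold and short of the adjusted one. From group means alone the difference was 0.17 (SE 0.38, adjusted p = 0.812). Averaged over both diets it was higher by 0.36 with the array SD (SE 0.08, adjusted p = 0.113). Both differences were past the unadjusted threshold whichever of the 20 mice was left out, with ranges of 0.44 to 0.67 and 0.31 to 0.41. With wide and narrow arrays as a 2-level block in place of the array SD, the DOXO against sham difference was 0.60 (SE 0.22, adjusted p = 0.661) and not past it, and 0 of the 10 genes were. That block gave C1qa 0.41 (SE 0.16) and Cd68 0.33 (SE 0.15). Among wide arrays alone, 2 DOXO against 3 sham mice, Lyve1 was higher by 1.09, the 1 gene of the 10 called there, beside 1.01% of all clusters. Among narrow arrays, 4 DOXO against 1 sham mouse, the difference was 0.26 (SE 0.22) and not past it, with the spread taken from the other groups since 1 mouse has none. Under FA the difference, FA-DOXO against FA-sham, was 0.16 with the array SD (SE 0.12, adjusted p = 0.999), and the interaction was -0.39 (SE 0.17, adjusted p = 0.566), not past the unadjusted threshold. Of 6 other lymphatic markers (among them Prox1, Flt4 and Pdpn), 0 passed the unadjusted threshold in DOXO against sham with either limma fit (2 from group means and 1 with the array SD at a p under 0.05). Their mean signal was 6.48 to 6.79 in FA-DOXO, 6.44 to 7.01 in DOXO, 6.45 to 6.53 in FA-sham and 6.40 to 6.76 in sham mice. Their part in the Lyve1 values was not tested.

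In the fit with the array SD, 3 of the 10 genes (Lyve1, C1qa and Cd68) were higher in DOXO than in sham hearts at the unadjusted threshold and 0 were lower. Over all clusters 4.14% were past it, 3.14% higher and 1.00% lower, and 0.170% passed the adjusted threshold, which none of the 10 did. The median of the 10 differences was 0.28, beside 0.04 over all clusters. In FA-sham against sham, where no mouse received DOXO, that median was 0.21 in the same fit, beside 0.07 over all clusters. There Lyve1 differed by 0.30 (SE 0.15, adjusted p = 0.644) and C1qa by 0.26 (SE 0.12, adjusted p = 0.629), neither past the unadjusted threshold. Averaged over both diets 2 of 10 (Lyve1 and C1qa) were higher, beside 2.83% of all clusters past the threshold, 2.01% of them higher, and 0.227% past the adjusted one. It passed 0 of 10 in FA-DOXO against DOXO, beside 1.11% of all clusters, 0 of 10 in FA-DOXO against FA-sham, beside 1.07%, 0 of 10 in FA-sham against sham, beside 1.83%, and 0 of 10 for the interaction, beside 1.78%. At a limma p under 0.05 these 4 counts were 1, 1, 2 and 1. Of all 34760 clusters, 2038, 1709, 2755 and 3000 passed it, in the same order. Leaving out sham mouse 3 left 1 gene called in DOXO against sham (Lyve1). Leaving out sham mouse 4, the only narrow sham array, gave 5 (Cd68, Cd163, Lyve1, Cd14 and C1qa).

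**Figure D3:**
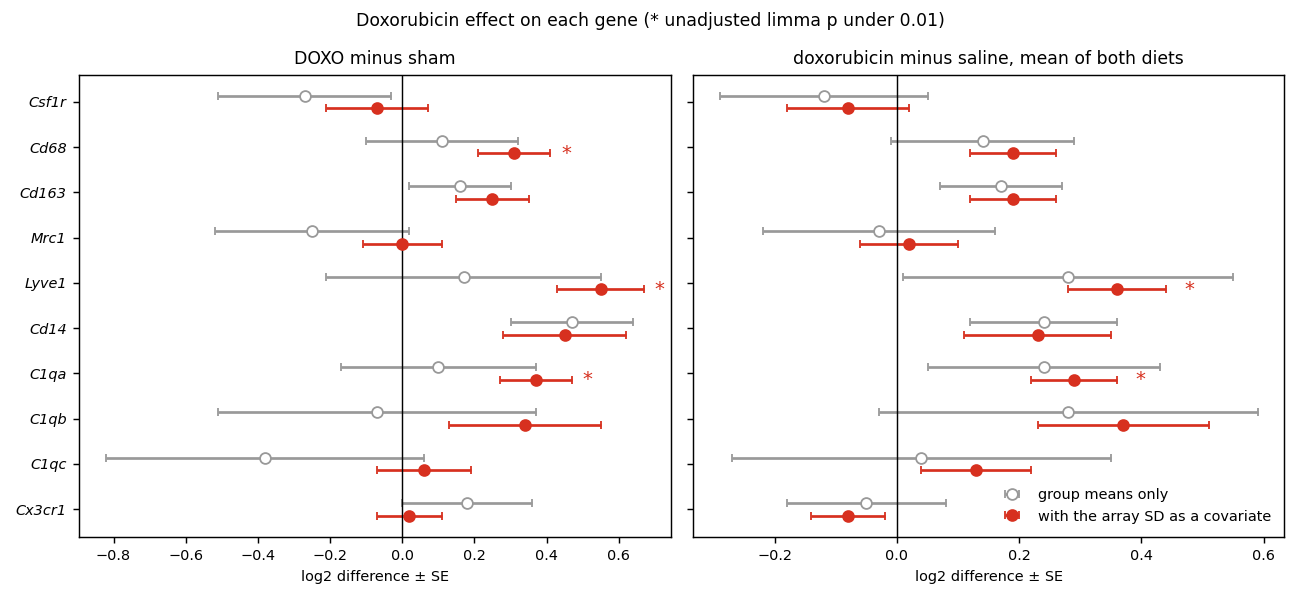
Log2 difference ± SE of the 10 genes for DOXO minus sham (left) and for DOXO minus saline averaged over both diets (right), from group means alone (open grey points) and with the array SD as a covariate (red points); a star marks an unadjusted limma p under 0.01. Stars stand at Cd68, Lyve1 and C1qa on the left and at Lyve1 and C1qa on the right, and the SEs of the grey points are wider for 9 of the 10 genes.

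Cd68 (cluster 10387536), the lysosomal protein most often stained to count macrophages, was at 6.76 to 7.89 in FA-DOXO mice, with a median of 7.00, and at 6.83 to 7.71 in DOXO mice, with a median of 7.00. FA-sham mice had 6.87, 6.82, 6.85 and 7.17, and sham mice 6.86, 7.27, 7.31 and 6.78. It was higher in DOXO than in sham hearts by 0.31 with the array SD (SE 0.10, 1.24-fold, adjusted p = 0.226), past the unadjusted threshold. FA-sham against sham differed as much in the same fit, by 0.31 (SE 0.12, adjusted p = 0.571), and FA-DOXO against FA-sham by 0.07 (SE 0.10, adjusted p = 0.999), both not past it. The DOXO against sham call held in 8 of the 20 fits with 1 mouse left out and was lost in the others, where the lowest difference was 0.27 (without sham mouse 1). The groups overlap, and the wide arrays of each were its highest, except that a narrow FA-DOXO array at 7.10 exceeded a wide one at 7.01. Cd163 (cluster 10541644), which takes up haemoglobin bound to haptoglobin, averaged 6.74 ± 0.21 in FA-DOXO, 6.81 ± 0.29 in DOXO (SD, n = 6 each), 6.56 ± 0.05 in FA-sham and 6.65 ± 0.14 in sham mice (SD, n = 4 each). In DOXO against sham it differed by 0.25 with the array SD (SE 0.10, adjusted p = 0.289), and by 0.16 without DOXO mouse 5, whose 7.34 was the highest of all mice. In FA-DOXO against FA-sham, 4 of 6 mice lay above every FA-sham mouse. The two-sided exact permutation test of Cd163 there gave p = 0.0286, or 0.508 adjusted over the 40 exact tests.

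Mrc1 and Csf1r were not past the threshold in any of the 6 comparisons with either fit. Mrc1 (cluster 10469358), the mannose receptor, averaged 6.92 ± 0.48 in FA-DOXO, 6.85 ± 0.46 in DOXO (SD, n = 6 each), 6.74 ± 0.14 in FA-sham and 7.10 ± 0.48 in sham mice (SD, n = 4 each). Its difference in DOXO against sham was -0.25 (SE 0.27) from group means and 0.00 (SE 0.11) with the array SD, and in FA-DOXO against DOXO it was 0.24 (SE 0.10, adjusted p = 0.839) with the array SD. Csf1r (cluster 10456071) averaged 6.52 ± 0.28 in FA-DOXO, 6.56 ± 0.37 in DOXO (SD, n = 6 each), 6.48 ± 0.11 in FA-sham and 6.83 ± 0.63 in sham mice (SD, n = 4 each). On the 12 narrow arrays it lay between 6.30 and 6.48, below the median of each of those arrays. It differed by -0.07 with the array SD (SE 0.14, adjusted p = 0.881) in DOXO against sham.

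Cd14 and Cx3cr1, the members most tied to monocytes, did not share the upward slope of the other 8 on the array SD. Cd14 (cluster 10458382), the co-receptor that hands lipopolysaccharide to toll-like receptor 4, was at 6.52 to 6.74 in FA-DOXO mice, with a median of 6.64, and at 6.33 to 7.51 in DOXO mice, with a median of 6.68. FA-sham mice had 6.68, 6.64, 6.57 and 6.61, and sham mice 6.41, 6.01, 6.09 and 6.67. The low sham values are the 3 wide arrays, and 3 of 6 DOXO mice lay above every sham mouse. Cd14 differed by 0.47 (SE 0.17, adjusted p = 0.647) in DOXO against sham from group means, not past the unadjusted threshold, and by 0.45 (SE 0.17, adjusted p = 0.276) with the array SD. The two-sided exact permutation test gave p = 0.0762, or 0.533 adjusted over the 40 exact tests. From group means it was past the unadjusted threshold without sham mouse 4 (0.60) and without DOXO mouse 1 (0.56). Without DOXO mouse 5, the highest, the difference from group means was 0.32 and that with the array SD 0.17. On narrow arrays it was 0.02 (SE 0.11).

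Cx3cr1 (cluster 10597743), the receptor of fractalkine on monocytes and on part of the resident macrophages, had the smallest p of the 10 in FA-sham against sham from group means. It was not the smallest with the array SD, where Cd68 was. FA-sham mice had 7.50, 7.30, 7.40 and 7.24, and sham mice 6.74, 6.53, 6.81 and 7.09. All 4 FA-sham mice lay above every sham mouse, a difference of 0.57 (SE 0.20, adjusted p = 0.156). It missed the unadjusted threshold and passed it without sham mouse 4, DOXO mouse 1, 2, 3 or 5, or FA-DOXO mouse 5. In the same fit and comparison, 10784 of all 34760 clusters had a limma p under 0.05, and the median difference over all clusters was 0.19. How many clusters separate these groups fully was not counted. For Cx3cr1 the two-sided exact permutation test gave p = 0.0286, the smallest that 4 mice against 4 allow, or 0.508 adjusted over the 40 exact tests. FA-sham has 3 narrow arrays of 4 and sham 1 of 4, and Cx3cr1 was lower on wider arrays. Given the array SD, the difference was 0.21 (SE 0.11, adjusted p = 0.659), and on narrow arrays, 3 FA-sham against 1 sham mouse, it was 0.31 (SE 0.12, adjusted p = 0.958). Between FA-DOXO and FA-sham, Cx3cr1 differed by -0.27 (SE 0.18, adjusted p = 0.983). The 6 FA-DOXO mice were at 6.79 to 7.30, with a median of 7.10, and 4 of them lay below every FA-sham mouse. The exact test gave p = 0.0381 there, or 0.508 adjusted over the 40. DOXO mice were at 6.28 to 7.28, with a median of 7.19 and the 2 wide arrays lowest. Its ligand Cx3cl1 differed by 0.18 (SE 0.14) in DOXO against sham.

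The 10 genes did not vary as 1 block once group means and the array SD were removed. Of their 45 pairs, 27 correlated above 0 over the 20 mice, and the median Pearson r was 0.10. After adjustment over the 45, 7 pairs had a permutation p under 0.05 (1 pair by Spearman's rho). The permutations shuffled the 20 residuals as if independent, though group means and the slope on the array SD had been fitted to them. Permutation p-values of the correlations, adjusted ones included, are therefore too small, and the count of 7 may be too high. The strongest pair was an inverse one. Mrc1 and C1qb had r = -0.75 (permutation p = 8e-05, adjusted p = 0.0036) and rho = -0.73 (p = 0.00037, adjusted p = 0.0166). The relation was present within the 8 wide arrays (r = -0.70) and within the 12 narrow ones (r = -0.82), and it was -0.82 without the 2 mice farthest from the median of Mrc1 and -0.72 with the square of the array SD removed too. Among 19936 genes, 0.767% ran as far against C1qb as Mrc1 did, and 0.411% ran as far with C1qa as Lyve1 did, the next pair. Lyve1 and C1qa varied together, with r = 0.65 (p = 0.00192, adjusted p = 0.0432), rho = 0.60 (p = 0.00661, adjusted p = 0.0651), 0.72 within wide and 0.57 within narrow arrays, and 0.58 without the 2 farthest mice.

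The C1q chains correlated with one another at r = 0.58 (C1qa with C1qb, p = 0.0067, adjusted p = 0.0469), 0.55 (C1qa with C1qc, p = 0.0111, adjusted p = 0.0625) and 0.54 (C1qb with C1qc, p = 0.0129, adjusted p = 0.0643), all by permutation. The rho values of these pairs were 0.59 (p = 0.00723), 0.63 (p = 0.0034) and 0.60 (p = 0.00617), each with an adjusted p of 0.0651, and without the 2 farthest mice r was 0.56, 0.61 and 0.49. C1qb was matched in its r with C1qa by 1.16% of 19936 genes, and C1qc in its r with C1qb by 5.82%. Within the wide arrays the 3 pairs were at 0.62, 0.57 and 0.67, and within the narrow ones at 0.57, 0.56 and 0.45. The other 4 pairs past the threshold by Pearson's r weakened more without the 2 mice farthest from the median of the first gene named. Mice extreme in the second gene only were kept. Csf1r with Mrc1 was at 0.58 (p = 0.00661, adjusted p = 0.0469) and at 0.35 without the 2 farthest mice, with rho = 0.39 (p = 0.0854). Csf1r with C1qb was at -0.62 (p = 0.00723, adjusted p = 0.0469) and at -0.45 without them, with rho = -0.36 (p = 0.123). Cd163 with Cd14 was at 0.56 (p = 0.00729, adjusted p = 0.0469) and at 0.39 without them, with rho = 0.25 (p = 0.287). Cd14 with Cx3cr1 was at -0.60 (p = 0.0072, adjusted p = 0.0469) and at -0.43 without them, with rho = -0.40 (p = 0.0781). The number of pairs past the threshold ran between 0 (without sham mouse 1) and 9 when 1 mouse was left out. No pair, Mrc1 with C1qb included, was therefore past the threshold without sham mouse 1. Without removal of the array SD, 36 of the 45 pairs passed it.

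**Figure D4:**
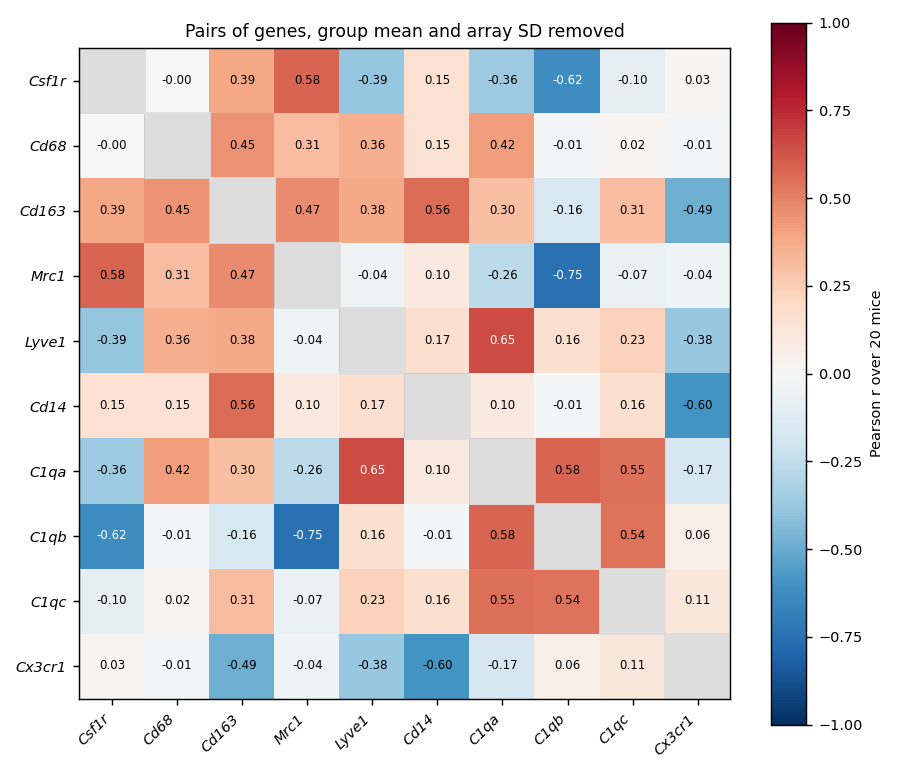
Pearson r over 20 mice for each pair of the 10 genes, after group means and the array SD were removed (colour scale -1 to 1, value printed in each cell). The C1q chains form a block of 0.54 to 0.58, Lyve1 pairs with C1qa at 0.65, and Mrc1 stands against C1qb at -0.75.

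The genes outside the 10 that varied most like their mean over the 20 mice, after the same removal, were Chit1 (r = 0.874), Hbq1b (0.842), Exosc5 (0.823), Rassf10 (0.820) and Cldn15 (0.809), followed by Otulin, Adam8, Cyp2d13, Neurl1a and Cym at 0.785 to 0.808. These are the highest of 19927 values and are given as a description. Several had low mean signals beside array medians of 6.23 to 6.66: Chit1 5.85, Cyp2d13 6.04, Rassf10 6.26, Adam8 6.31 and Exosc5 6.37. The others were at 6.61 (Cldn15) to 7.04 (Otulin). All values of a mouse share 1 array.

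Genes of the same pathways were counted with the same 2 limma fits, at the unadjusted threshold unless said otherwise. Their counts stand beside 0.532% of all clusters higher and 0.515% lower from group means, and 3.14% higher and 1.00% lower with the array SD. Of 24 other macrophage surface and lysosome genes, 0 were past it in DOXO against sham from group means (3 at a p under 0.05), and 2 were higher with the array SD. These were Ms4a6c, a membrane protein of myeloid cells, by 0.83 (SE 0.28, adjusted p = 0.226), and Ctss, the lysosomal protease cathepsin S, by 0.21 (SE 0.07, adjusted p = 0.236). Adgre1, which encodes F4/80, differed by -0.17 (SE 0.12) and Mertk, the receptor for dying cells, by -0.02 (SE 0.12) in the same fit. Of 18 genes of heart-resident macrophages 1 was higher in both fits, Fcna (ficolin A), by 0.35 (SE 0.12, adjusted p = 0.647) from group means, and Retnla was lower with the array SD, at -0.64 (SE 0.21, adjusted p = 0.210). Of 13 ligands and transcription factors of the CSF1 receptor lineage, 0 passed with either fit (0 and, with the array SD, 3 at a p under 0.05), and Csf1 differed by -0.37 (SE 0.22) from group means.

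Of 12 further genes of the classical complement pathway, 1 was higher in DOXO against sham with both fits. It was C4b, the complement component cleaved by the C1 proteases, by 0.47 (SE 0.16, adjusted p = 0.647) from group means and 0.55 (SE 0.13, adjusted p = 0.0936) with the array SD. Of 14 genes around CD14 and toll-like receptor 4, 0 passed from group means (2 at a p under 0.05) and 4 were higher with the array SD. They were Nfkbia, the inhibitor of NF-kappaB, by 0.84 (SE 0.14, adjusted p = 0.0263), Tlr4 by 0.47 (SE 0.14, adjusted p = 0.178), Lbp, the lipopolysaccharide-binding protein, by 0.63 (SE 0.21, adjusted p = 0.225) and Tnf by 0.22 (SE 0.07, adjusted p = 0.194). Lbp was at 6.75 to 8.75 in DOXO and 6.32 to 7.12 in sham mice. Tnf averaged 6.16 in DOXO and 5.86 in sham mice, below the lowest array median of 6.23. Of 11 genes of haemoglobin and haem clearance around CD163, 0 passed from group means (2 at a p under 0.05) and 2 were higher with the array SD, haptoglobin (Hp) by 0.39 (SE 0.11, adjusted p = 0.165) and haem oxygenase 1 (Hmox1) by 0.98 (SE 0.29, adjusted p = 0.174). Of 13 genes of the CD209 and mannose receptor family, 2 C-type lectins were higher from group means, Clec4d by 0.69 (SE 0.17, adjusted p = 0.647) and Clec4e by 0.58 (SE 0.16, adjusted p = 0.647). The fit with the array SD called Clec4d and Clec4e higher too, and Clec7a, the beta-glucan receptor dectin 1, lower, at -0.29 (SE 0.09, adjusted p = 0.212). Sham means of Hp, Clec4d and Clec4e, at 5.82, 6.05 and 5.54, also lay below the lowest array median. Of 16 genes of fractalkine and monocyte recruitment, 0 passed with either fit (2 and, with the array SD, 1 at a p under 0.05). On narrow arrays alone, 4 DOXO mice against 1 sham mouse, 0 genes of these 8 lists passed and 2 had a limma p under 0.05.

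Some markers of other immune cells were past the unadjusted threshold in DOXO against sham. From group means, 1 of all 34760 clusters passed the adjusted threshold in this comparison. Of 12 neutrophil genes 6 were higher in DOXO than in sham hearts from group means, beside 0.532% of all clusters higher. Among them were the calprotectin subunit S100a8, at 1.32, and the granule protein Ngp, at 1.25. S100a8 was at 6.62 to 8.61 in DOXO and 5.25 to 6.27 in sham mice. Ngp was at 5.97 to 8.18 in DOXO and 5.10 to 5.74 in sham mice. The sham means of S100a8 and Ngp, 5.76 and 5.44, were below the medians of the sham arrays (6.23 to 6.60). The mean signal of the 12 was 6.23 to 6.58 in FA-DOXO, 6.37 to 6.61 in DOXO, 6.18 to 6.47 in FA-sham and 5.60 to 6.37 in sham mice. Of 6 MHC class II genes, which dendritic cells, B cells and part of the macrophages carry, 5 were lower (H2-Aa at -2.33, H2-Ab1 at -1.84, Cd74 at -1.49, H2-Eb1 at -0.93 and H2-DMa at -0.46), beside 0.515% of all clusters lower. Their mean signal was 6.24 to 6.68 in FA-DOXO, 6.00 to 6.57 in DOXO, 6.58 to 7.39 in FA-sham and 6.61 to 8.01 in sham mice. The highest DOXO value, 6.57, and the lowest sham value, 6.61, nearly met. On the 12 narrow arrays of all groups the mean signal was 6.43 to 6.66. With the array SD the counts were the same, 6 of 12 higher and 5 of 6 lower. On narrow arrays, where sham is 1 mouse, the median difference was 0.00 for the neutrophil and -0.11 for the MHC class II genes, against 0.34 and -1.21 over all arrays. Of 9 dendritic cell, 6 T cell, 5 B cell, 6 mast cell, 8 blood endothelial, 8 cardiomyocyte and 7 fibroblast genes, 0 passed from group means in limma, also at a p under 0.05. With the array SD 1 T cell gene (Cd3g) was higher, and 1 of 4 erythroid genes (Alas2) was lower with both fits. The part of these cells in the Lyve1, C1qa, Cd68 and Cd14 values was not tested.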

How the data were processed

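Total RNA of the left ventricle of 20 mice was isolated with a fibrous tissue kit and hybridised, 1 array per mouse, to Affymetrix arrays of the type Mouse Gene 1.0 ST. The authors deposited log2 signals per transcript cluster, made with R 2.14.2 and Bioconductor. The background correction, the normalization and the probe summary they used were not given in the sources used here, and the number of arrays limits the precision. Groups came from the sample labels. No 2 arrays held identical values.

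The main model had 1 mean for each group and was fitted to 34760 clusters over all 20 arrays with limma 3.58.1 in R 4.3.3, with no filter and no further normalization, moderated without a trend, with two-sided contrasts. Thresholds were an unadjusted p of 0.01, as in the methods, and a Benjamini-Hochberg adjusted p of 0.05. The fit was repeated with the SD of each array as a covariate. Exact permutation tests used SciPy 1.17.1, and correlations of residuals with 100000 permutations used NumPy 2.4.6. The code was checked by adding known log2 changes to the residuals of the real arrays, with group means removed. The group-means fit returns such changes by construction, so this check says nothing about the effect of array spread. Symbols came from the platform annotation, where 21640 clusters have 1 symbol, 1321 several and 11799 are unlisted. Some genes of the lists were not analysed here and are not reported. The named genes are the 10 members, up to 4 genes per list with the smallest p, others that were called (chosen after their values were seen, as were Spi1, Adgre1, Mertk and Cx3cl1), and the 10 genes most like the members. Members and lists were chosen with earlier results of these data known. Alternatives were array SD, wide and narrow arrays as a block or alone, quantile normalization, median centring, 2 treatments of low signals, a trended and robust fit, array weights, only the compared groups, each mouse left out in turn, and a block for the replicate number. Promoters are from RefSeq (GRCm38.p6). Array coordinates are not given, since the array annotation's build is not stated.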

Additional observations from a re-analysis of the deposited data

Results flagged for a closer look

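Over the 10 genes and 4 groups, 3 of 40 sets of mice held 1 mouse whose gap to its nearest neighbour took up most of the range of the group (Dixon's 95% critical value). Chance flags about 1 set in 20. In each case the mouse was the highest of its group and had a wide array. Csf1r was at 7.29 in DOXO mouse 5, against 6.30 to 6.54 in the other DOXO mice. Cd68 was at 7.89 in FA-DOXO mouse 5, against 6.76 to 7.10 in the other FA-DOXO mice, and at 7.17 in FA-sham mouse 4, the only wide array of that group, against 6.82 to 6.87 in the others. No interaction of diet and injection passed the unadjusted threshold for any of the 10 genes from group means.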

How the results depend on the processing

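Of 1960 differences of single genes under the alternatives, 1725 kept their direction and their side of the unadjusted threshold, 54 passed it in the same direction and 181 changed sign. None of the 10 genes was called from group means, so no called value could turn. The number of the 10 genes past it, 0 from group means in each of the 6 comparisons, moved as follows. In DOXO against sham it was 3 with the array SD, 3 with the array SD and its square, 2 with the interquartile range as the covariate, 1 on wide arrays alone, 0 when a block separated wide from narrow arrays and 5 with array weights. With array weights DOXO against sham turned to -0.56 for Lyve1, -0.36 for C1qa and -0.30 for Cd68, none past the threshold. From group means, Lyve1 and C1qa also lay below 0 without sham mouse 4, DOXO mouse 1 or DOXO mouse 5, at -0.08 to -0.03. For DOXO against saline averaged over both diets it was 2 with the array SD, 4 with the array SD and its square, 3 with the interquartile range, 3 when a block separated wide from narrow arrays, 1 on narrow arrays alone, 1 after quantile normalization and 3 with array weights. For FA-sham against sham it was 1 (Cx3cr1) after quantile normalization, with a floor at the 20th percentile and with only the compared groups, and 9 with array weights, which gave 8 for the interaction. The square and the interquartile range as a covariate were chosen after seeing the data.

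With array weights 24616 of 34760 clusters passed in DOXO against sham. limma's default weights did not converge and put 86.0 on sham mouse 3, so gene-by-gene weights were used, which gave that mouse 3.05 and the other sham mice 0.119 to 0.629. With each mouse left out, the count ran from 0 to 1 in DOXO against sham (Cd14, without sham mouse 4 or DOXO mouse 1), from 0 to 2 in FA-sham against sham (C1qb and Cx3cr1, without sham mouse 4) and was 0 in the other 4. With the array SD it ran from 1 to 5 in DOXO against sham, from 2 to 4 averaged over both diets, from 0 to 1 in FA-DOXO against FA-sham (C1qa, without FA-DOXO mouse 6) and in FA-sham against sham (without sham mouse 4, DOXO mouse 5 or FA-DOXO mouse 6), and was 0 in the others. The 2 counts of 4 averaged over both diets came without sham mouse 4 and without FA-DOXO mouse 6. All clusters past the threshold, 364 in DOXO against sham, numbered 95 to 24616 under the alternatives and 137 to 2581 with a mouse left out. For FA-DOXO against DOXO (55) the range was 27 to 550, for FA-DOXO against FA-sham (93) 15 to 817, for FA-sham against sham (1512) 127 to 25412, for the interaction (161) 35 to 22356 and averaged over both diets (176) 98 to 19202.

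Whether replicate numbers pair the mice could not be settled, since only group means were removed and the array spread was not. Same-numbered mice correlated between -0.856 and 0.839. The correlation was above 0.1 in 4 of 6 pairs of FA-DOXO and DOXO and in 3 of 4 pairs of FA-DOXO and FA-sham. It was so in 1 of 4 pairs of DOXO and sham and in 0 of 4 pairs of FA-sham and sham. When the replicate number was a block, the count of the 10 genes was 1 (Cx3cr1) in FA-sham against sham. With the block and the array SD it was 2 in DOXO against sham, 2 averaged over both diets and 1 (C1qa) in FA-DOXO against FA-sham. The number of correlated pairs, 7, was 3 after quantile normalization, 3 after median centring, 3 with the square of the array SD removed, 36 without removal of the array SD (the last 2 chosen after seeing the data) and 0 to 9 with a mouse left out. Slopes on the array SD were past the adjusted threshold for 9 of 10 genes, for 9 with the interquartile range and for 9 to 10 with a mouse left out. The mean over several clusters of a gene was not run, since each gene has 1. The cause of these changes was not tested.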
